A study of Mus musculus with 4 samples.

Results

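*Maf*, *Prdm1* and *Il10* were followed through the scRNA-seq data of intestinal YFP+CD4+ T cells as 3 genes of 13265 in the deposited table, matched by symbol. *Maf* encodes c-MAF, a bZIP transcription factor of TH17 and follicular helper T (TFH) cells that drives *Il10* in many CD4+ T cells. *Prdm1* encodes BLIMP-1, a transcriptional repressor that opposes BCL6 and the TFH program and is found in effector and IL-10-producing T cells. *Il10* encodes IL-10, a secreted cytokine that restrains myeloid and T cell responses in the intestine. In mm10, *Maf* lies on the minus strand at chr8:115682942-115707794, *Prdm1* on the minus strand at chr10:44437177-44528501 and *Il10* on the plus strand at chr1:131019845-131024974. The antisense gene *Gm15655* overlaps *Maf* at chr8:115705078-115707233, and whether the counting used strand is not given in the sources used here.

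The study asked what TGFβ signaling does in TH17 cells once they have differentiated. YFP+CD4+ T cells were sorted by FACS out of small intestines of C57BL/6 mice aged 7 to 8 months and captured with a 10x Genomics 3′ protocol, in which every RNA molecule is tagged with a unique molecular identifier (UMI). Mice of all groups carried *Il17a-cre* and a *Rosa26-stop-yfp* reporter, so YFP marks cells in which *Il17a* has been expressed at some time and the cells need not still express it. TGFβR-KO mice also carried floxed alleles of *Tgfbr2*, the type II TGFβ receptor, TGFβR-CA mice carried a constitutively active form of *Tgfbr1* behind a floxed stop cassette, and TGFβR-WT mice were littermates without these alleles. There was 1 sample each of TGFβR-KO and TGFβR-CA and 2 of TGFβR-WT. The cells of the TGFβR-WT samples are not told apart in the deposited table, so they were pooled. The suffix of their names also parts them into 2 sets, the larger of 709 and the smaller of 298 cells. What the suffix stands for is not given in the sources used here, and the sets were used only to show the spread among TGFβR-WT cells.

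The table held 2975 TGFβR-KO cells, 1007 TGFβR-WT cells and 1098 cells labelled TGFβR-CA, each with the authors' cluster name. Median corrected UMIs per cell were 3794, 3659 (3440 in the larger set and 3985 in the smaller) and 3918, and median detected genes were 1488, 1533 (1470 and 1675) and 1555. The values are UMI numbers that the authors corrected to a common depth, so they are not raw counts and the original depth of a cell is unknown. A barcode shared with another set of cells was found in 15, 16 and 1 cells. *Tgfbr1* was at 0.219 per 10000 corrected UMIs in TGFβR-KO and 1.16 in TGFβR-WT (larger set 0.367, smaller set 2.79). In cells labelled TGFβR-CA it was at 0.792, below pooled TGFβR-WT but between its sets. Whether the active construct is counted as *Tgfbr1* is not given in the sources used here. This value therefore does not check that label, and these cells are called by their label throughout. *Tgfbr2* was at 1.48, 1.73 and 1.78, and a 3′ tag does not check a deletion upstream of it. CD4+ T cell markers were present in every group, with *Cd3e* in 95.9%, 97.6% and 95.2% of cells.

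With 1 TGFβR-KO and 1 TGFβR-CA sample there is no replicate, and cells of 1 sample are not replicates of a condition, so no test between conditions was made and no p-value is given. A level is the sum of a gene's corrected UMIs per 10000 corrected UMIs of the same cells. Levels are not scaled by gene length and are compared between cells, not between genes. A level was called lower or higher where it differed at least 1.5 times from both TGFβR-WT sets. Shares of cells are cells with at least 1 corrected UMI, with exact Clopper-Pearson 95% intervals. These intervals, and the limit of 3 counts given beside a count of 0, cover counting error only. Per the study's methods, TGFβR-KO cells shared 1 sequencing batch with some of the TGFβR-WT cells, and TGFβR-CA cells shared the other with the rest. Because TGFβR-WT cells could not be assigned to a batch here, no within-batch value is given, and differences between conditions cannot be told apart from differences between single samples.

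*Maf* was the member with by far the most UMIs, 34199 in all cells. Its level was 12.7 per 10000 in TGFβR-KO, and it was 22.9 in TGFβR-WT and 25.3 in cells labelled TGFβR-CA. The TGFβR-WT sets were at 24.1 and 20.5. TGFβR-KO cells thus held 0.553 times the TGFβR-WT level (0.525 and 0.619 times the larger and smaller sets) and were called lower, as were 5.43% of the 7490 genes with at least 200 corrected UMIs. Cells labelled TGFβR-CA were at 1.10 times the TGFβR-WT level (1.05 and 1.24), above both sets but under the size asked for a call. In this comparison 1.26% of genes were called higher and 2.75% lower. *Maf* and *Prdm1* reached the 200 UMIs of this background, and *Il10*, with 88 UMIs, did not.

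Most cells of every condition held *Maf*, so the conditions differed more in how many *Maf* UMIs a cell held than in whether it held any. *Maf* was detected in 88.6% of TGFβR-KO cells (87.4 to 89.7), 95.4% of TGFβR-WT cells (94.0 to 96.6) and 98.1% of cells labelled TGFβR-CA (97.1 to 98.8). The median cell held 4, 7 and 9 *Maf* UMIs. At least 10 *Maf* UMIs were found in 13.3% of TGFβR-KO cells (12.1 to 14.6), 34.0% of TGFβR-WT cells (31.0 to 37.0) and 44.2% of cells labelled TGFβR-CA (41.2 to 47.2). The larger and smaller TGFβR-WT sets were close to each other here, at 34.3% and 33.2%. Cells with 20 or more *Maf* UMIs made up 1.71%, 7.55% and 11.4%. As a ratio, though not in percentage points, TGFβR-KO and TGFβR-WT thus lay further apart for cells rich in *Maf* than for cells with any.

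**Figure D1:**
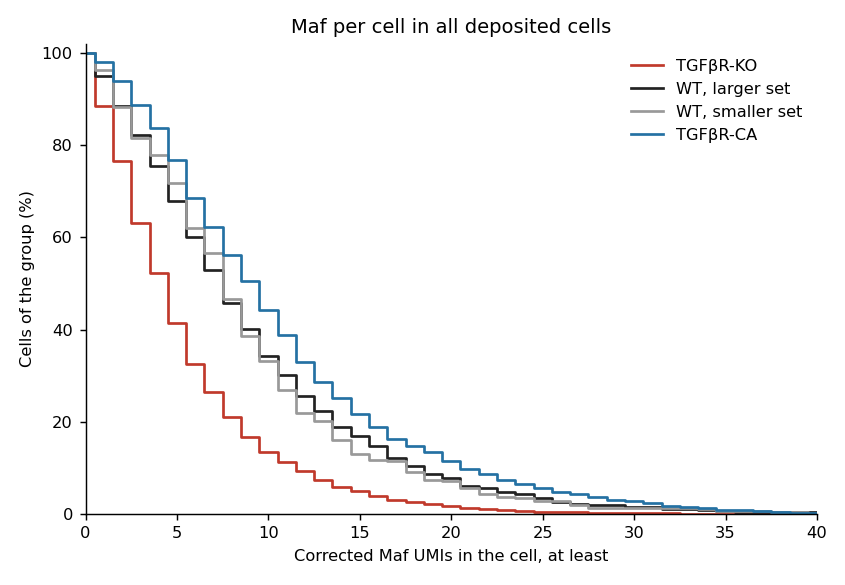
Percentage of cells (y axis) holding at least the number of *Maf* corrected UMIs on the x axis, with 1 curve for each TGFβR-WT set, for TGFβR-KO and for cells labelled TGFβR-CA. From 1 to 10 UMIs the TGFβR-KO curve lies below the others, with 13.3% of its cells at 10 UMIs or more against 34.3% and 33.2% in the TGFβR-WT sets and 44.2% in cells labelled TGFβR-CA.

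The authors' clusters were made from the expression of these same cells, so the order of levels between clusters is a description. Activated cells held the most *Maf* in all 3 conditions, but the study itself described this cluster by high *Il17a* and *Maf*, among other genes. In TGFβR-KO the Activated level of 21.5 was followed by germinal center TFH (GC-TFH) cells at 18.7, Pre-tumorigenic cells at 15.2 and tissue-resident TFH (TR-TFH) cells at 11.4. The clusters that were abundant mainly in TGFβR-KO lay below these, with Tumorigenic cells at 11.1, Migratory cells at 9.66 and cytotoxic (CTL) cells at 9.37, and Cycling cells were lowest at 7.44. The neighbors TR-TFH and Tumorigenic, and Migratory and CTL, differed by less than the larger and smaller TGFβR-WT sets did within TR-TFH.

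Within clusters, TGFβR-KO cells were below both TGFβR-WT sets in all 4 clusters that had at least 20 cells in each set, at 0.527 to 0.725 times the TGFβR-WT level, and were called lower in 1 of them. That cluster was Activated, in which the level was 21.5 in TGFβR-KO, 43.5 and 34.0 in the larger and smaller TGFβR-WT sets and 41.6 in cells labelled TGFβR-CA. Of all genes, 8.95% were called lower in the Activated comparison, 5.99% in that of GC-TFH, 8.09% in that of TR-TFH and 11.8% in that of Pre-tumorigenic cells. For the conversion of TH17 into TFH cells, the study reported that the effect of TGFβ signaling came without changes in *Maf* expression. In TR-TFH cells the level was 11.4 in TGFβR-KO, 22.4 and 16.9 in the TGFβR-WT sets and 21.3 in cells labelled TGFβR-CA, and the ratio of 0.673 to the smaller set kept this cluster from a call. In GC-TFH cells, which the study recognized, like Activated cells, by genes that include *Maf*, the levels were 18.7, 27.2, 22.8 and 26.3. In Pre-tumorigenic cells they were 15.2, 27.4, 22.4 and 26.6. The 4 clusters therefore shared 1 order, with TGFβR-KO lowest and cells labelled TGFβR-CA between or near the TGFβR-WT sets, at 1.02 to 1.11 times the pooled TGFβR-WT level. In Migratory cells, where the smaller set had 16 cells, TGFβR-KO was at 9.66, TGFβR-WT at 13.5 and 23.0 was found in cells labelled TGFβR-CA. With every condition weighted to the cluster shares of TGFβR-WT, the TGFβR-KO level was 0.608 times and the TGFβR-CA level 1.07 times that of TGFβR-WT, so most of the TGFβR-KO difference was also seen inside the clusters.

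**Figure D2:**
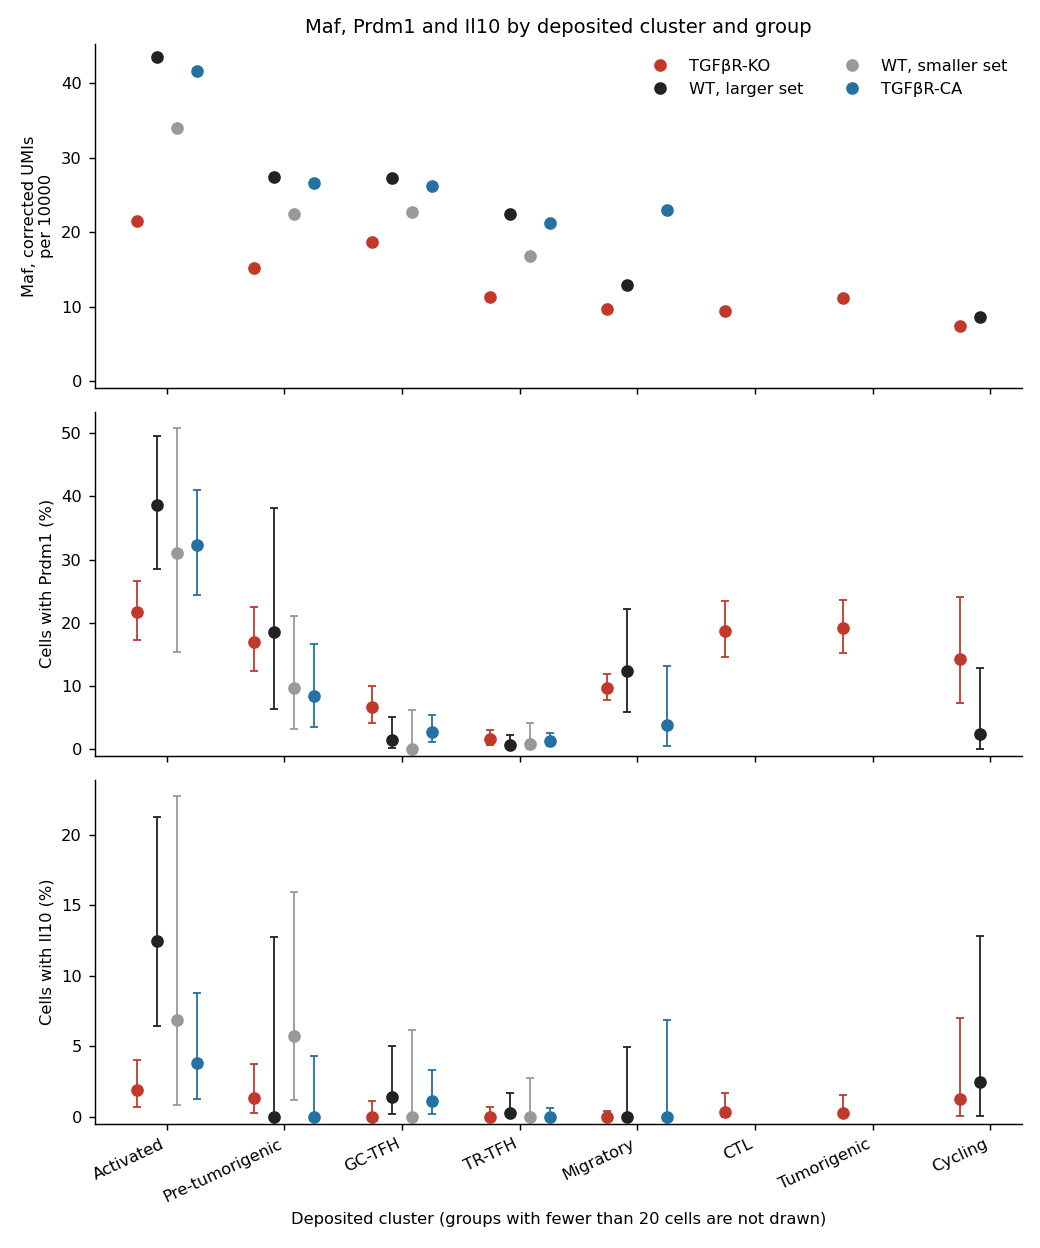
The 3 genes by deposited cluster (x axis): the level of *Maf* per 10000 corrected UMIs, the percentage of cells with *Prdm1* and the percentage with *Il10* (y axes), with points for TGFβR-KO, both TGFβR-WT sets and cells labelled TGFβR-CA where a group had at least 20 cells, and bars for exact 95% intervals of the shares. In Activated cells TGFβR-KO is lowest for all 3 genes, whereas for *Prdm1* in GC-TFH cells TGFβR-KO is highest, at 6.60%.

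*Prdm1* was sparse, with 657 corrected UMIs in all cells. Its level was 0.398 per 10000 in TGFβR-KO, 0.277 in TGFβR-WT (0.319 in the larger set and 0.190 in the smaller) and 0.221 in cells labelled TGFβR-CA. TGFβR-KO was thus at 1.44 times the TGFβR-WT level, but at 1.25 times the larger and 2.10 times the smaller set, so it was not called. In this comparison 2.94% of genes were called higher. Cells labelled TGFβR-CA were at 0.799 times the TGFβR-WT level, below the larger and above the smaller set (0.693 and 1.17 times). *Prdm1* was detected in 357 of 2975 TGFβR-KO cells (12.0%, 10.9 to 13.2), 71 of 1007 TGFβR-WT cells (7.05%, 5.55 to 8.81) and 65 of 1098 cells labelled TGFβR-CA (5.92%, 4.60 to 7.48). The additional TGFβR-KO cells held single UMIs. At 2 or more *Prdm1* UMIs the shares were 2.39%, 2.48% and 2.0%, and a cell with *Prdm1* held 1.28 UMIs on average in TGFβR-KO against 1.45 in TGFβR-WT and 1.49 in cells labelled TGFβR-CA. As a background level, TR-TFH cells, a TFH type in which BLIMP-1 is usually repressed, held *Prdm1* in 18 of 1535 cells (1.17%). Their median was 3665 corrected UMIs a cell, against 3872 in Activated cells, and these values do not show the original depth.

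The whole-population value of *Prdm1* hid opposite differences between clusters. In Activated cells *Prdm1* was found in 69 of 318 TGFβR-KO cells (21.7%, 17.3 to 26.6), 43 of 117 TGFβR-WT cells (36.8%, 28.0 to 46.2) and 42 of 130 cells labelled TGFβR-CA (32.3%, 24.4 to 41.1). The larger and smaller TGFβR-WT sets were at 38.6% and 31.0%. The Activated level of 0.801 in TGFβR-KO was 0.523 times the TGFβR-WT level of 1.53 (0.486 and 0.656 times the sets) and was called lower. Cells labelled TGFβR-CA, at 1.26, were not called, where 5.71% of genes were called higher and 8.32% lower. In GC-TFH cells the order was turned. There *Prdm1* was found in 21 of 318 TGFβR-KO cells (6.60%, 4.13 to 9.92), 2 of 141 and 0 of 58 cells of the larger and smaller TGFβR-WT sets, and 7 of 263 cells labelled TGFβR-CA (2.66%). Since TGFβR-WT GC-TFH cells held 2 *Prdm1* UMIs in all, no fold is given for this cluster, and the 0 of 58 cells allows a share of up to 5.17%. In TR-TFH cells, which supply the background share, *Prdm1* was found in 1.54%, 0.652% and 1.26% of cells, with 9, 3 and 9 UMIs. In GC-TFH and TR-TFH cells both TGFβR-KO and TGFβR-CA met the size asked for higher, as did 3.97% and 2.04% of genes in TGFβR-KO and 3.59% and 1.94% in TGFβR-CA, but against at most 3 UMIs in TGFβR-WT. Pre-tumorigenic cells held *Prdm1* in 17% of TGFβR-KO cells, which lay between the larger and smaller TGFβR-WT sets at 18.5% and 9.62%. The Activated and GC-TFH differences were not tested, and in both clusters the interval of the smaller TGFβR-WT set (15.3 to 50.8 and 0 to 6.16) overlapped that of TGFβR-KO.

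Clusters that TGFβR-WT mice nearly lacked carried much of the *Prdm1* of TGFβR-KO. Among TGFβR-KO cells *Prdm1* was detected in 69 of 361 Tumorigenic cells (19.1%), 60 of 321 CTL cells (18.7%) and 80 of 831 Migratory cells (9.63%). Migratory cells of TGFβR-WT were close, at 9 of 89 (10.1%). Tumorigenic and CTL cells made up 12.1% and 10.8% of TGFβR-KO cells but 0.497% and 1.29% of TGFβR-WT cells, and TR-TFH cells, almost free of *Prdm1*, 17.4% against 45.7%. In TGFβR-WT, 66.0% of all *Prdm1* UMIs lay in Activated cells (66.3% and 65.2% in the sets), and in cells labelled TGFβR-CA 69.1%. In TGFβR-KO the Activated share of *Prdm1* UMIs was 21.4%, with 20.1% in Migratory, 19.5% in Tumorigenic, 16.6% in CTL and 11.8% in Pre-tumorigenic cells. Weighted to the TGFβR-WT cluster shares, the TGFβR-KO level of *Prdm1* was 0.948 times that of TGFβR-WT and its share of cells 7.69%, so the higher TGFβR-KO value over all cells was not seen at equal cluster shares.

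**Figure D3:**
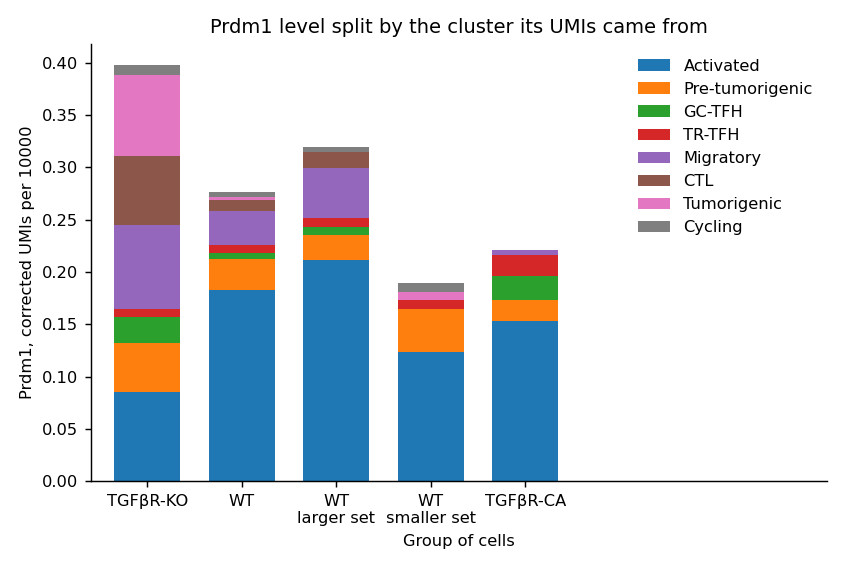
*Prdm1* level per 10000 corrected UMIs (y axis) as stacked bars for TGFβR-KO, all TGFβR-WT cells, each TGFβR-WT set and cells labelled TGFβR-CA (x axis), with the part of each bar that comes from each deposited cluster. Activated cells supply 66.0% of the TGFβR-WT bar and 21.4% of the taller TGFβR-KO bar, where Migratory, Tumorigenic and CTL cells add 20.1%, 19.5% and 16.6%.

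*Il10* was rarer still, with 88 corrected UMIs in 40 cells. It was found in 12 of 2975 TGFβR-KO cells (0.403%, 0.209 to 0.704), in 20 of 1007 TGFβR-WT cells (1.99%, 1.22 to 3.05) and in 8 of 1098 cells labelled TGFβR-CA (0.729%, 0.315 to 1.43). The larger TGFβR-WT set held 15 of these cells (2.12%, 1.19 to 3.47) and the smaller 5 (1.68%, 0.547 to 3.87), so the interval of TGFβR-KO lay below that of the larger set but met that of the smaller. TGFβR-KO had a level of 0.0166 per 10000, TGFβR-WT one of 0.110 (larger set 0.120, smaller set 0.0907) and 0.0639 was found in cells labelled TGFβR-CA. TGFβR-KO, at 0.150 times the TGFβR-WT level (0.138 and 0.183 times the sets), met the size asked for lower, and TGFβR-CA, at 0.580 times (0.534 and 0.705), did not. The study, by contrast, reported no loss of *Il10*+ cells between the genotypes, and its text gives no counts for this. Counts this small make any ratio imprecise. A cell with *Il10* held 2 UMIs in the median and 7 at most, 19 of the 40 held 1 UMI, and of the 9 with at least 4 UMIs 1 was TGFβR-KO, 4 were TGFβR-WT and 4 were labelled TGFβR-CA.

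Activated cells were the main holders of *Il10*, with 24 of the 40 cells (60.0%). Of the rest, 6 were Pre-tumorigenic, 5 GC-TFH, 2 Cycling, 1 TR-TFH, 1 Tumorigenic and 1 CTL. Migratory cells had none in 972, which allows a share of up to 0.309%, and 1 of 1535 TR-TFH cells was positive, so the background of positive cells in those clusters was low. The median Migratory cell held 3984 corrected UMIs, a value that does not show its original depth. Within Activated cells *Il10* was found in 6 of 318 TGFβR-KO cells (1.89%, 0.695 to 4.06), 13 of 117 TGFβR-WT cells (11.1%, 6.05 to 18.3) and 5 of 130 cells labelled TGFβR-CA (3.85%, 1.26 to 8.75). The larger TGFβR-WT set gave 11 of 88 cells (12.5%) and the smaller 2 of 29 (6.90%, 0.846 to 22.8), so most of the TGFβR-WT value came from the larger set. The levels were 0.0654, 0.697 and 0.263 per 10000, which puts TGFβR-KO at 0.0937 times and TGFβR-CA at 0.377 times the TGFβR-WT level (0.338 and 0.539 times the sets). Both met the size asked for lower, the TGFβR-CA value with 14 UMIs in 5 cells and an interval of its share that overlapped that of TGFβR-WT. For *Maf* and *Prdm1*, by contrast, Activated cells labelled TGFβR-CA were not called. In GC-TFH cells *Il10* was found in 0 of 318 TGFβR-KO cells, which allows a share of up to 0.943%, 2 of 199 TGFβR-WT cells and 3 of 263 cells labelled TGFβR-CA, the last with 14 UMIs. Weighted to the TGFβR-WT cluster shares, the TGFβR-KO level was 0.119 times that of TGFβR-WT.

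The 3 genes were then read in the same cells. All 40 cells with *Il10* also held *Maf*, and none of the 407 cells without *Maf* held *Il10*, which allows a share of up to 0.737%, against 0.856% of the cells with *Maf* (0.612 to 1.16). Since 95.4% of TGFβR-WT cells held *Maf*, the amount says more than the presence. Cells with *Il10* held 10.5 *Maf* UMIs in the median (range 3 to 35), against 5 in all others. Over all cells, *Il10* was found in 0.316% of those with 1 to 4 *Maf* UMIs, 0.840% with 5 to 9, 1.03% with 10 to 19 and 11 of 252 (4.37%, 2.20 to 7.68) with 20 or more. Of these 11 cells 8 were TGFβR-WT Activated cells. In that group 8 of 37 cells with 20 or more *Maf* UMIs held *Il10* (21.6%, 9.83 to 38.2), against 0 of 21 in TGFβR-KO, which allows a share of up to 14.3%, and 2 of 48 in cells labelled TGFβR-CA. Outside Activated cells, with all conditions pooled, the share with *Il10* stayed at or below 0.685% at every amount of *Maf*, and in TGFβR-WT alone it was 0.923% at 5 to 9, 0.905% at 10 to 19 and 1 of 39 cells (2.56%) at 20 or more. The median number of detected genes also went from 1383 in Activated cells without *Maf* to 1793 in those with 20 or more UMIs, and its part in these shares was not tested.

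Within Activated cells the *Maf* content of the cells with *Il10* differed by condition. In TGFβR-WT the 13 cells with *Il10* held 24 *Maf* UMIs in the median against 13.5 in the other Activated cells, and 10 of the 13 lay above that value. In TGFβR-KO the 6 cells with *Il10* held 7 against 7, and in cells labelled TGFβR-CA the 5 cells held 18 against 15. The TGFβR-KO Activated cells with *Il10* were thus not the cells rich in *Maf*, though 6 cells give little precision.

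**Figure D4:**
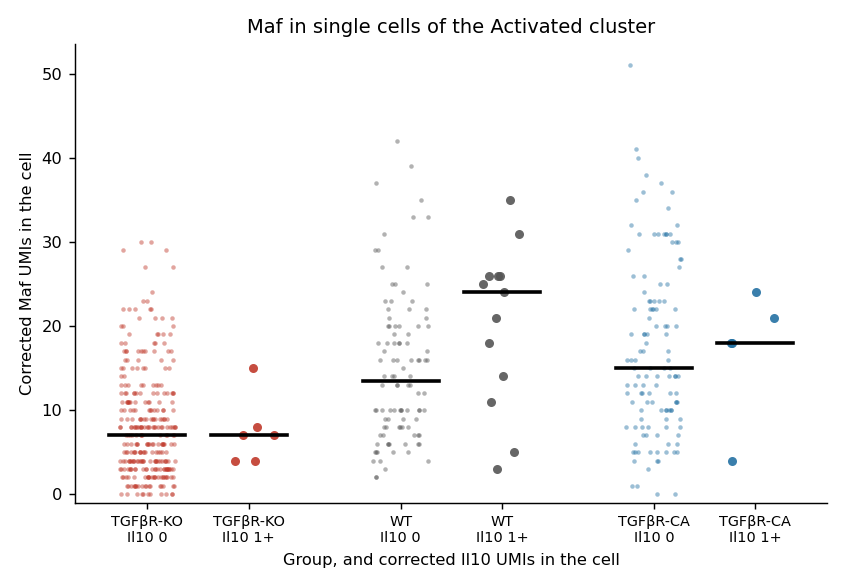
*Maf* corrected UMIs per Activated cell (y axis) for each condition, split by whether *Il10* was at 0 or detected (x axis), with 1 point a cell and a black line at the median. The line lies at 24 against 13.5 UMIs in TGFβR-WT, at 7 in both groups of TGFβR-KO and at 18 against 15 in cells labelled TGFβR-CA.

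*Prdm1* was more frequent in cells with *Il10* than in cells without it. Among cells with *Il10*, 18 of 40 also held *Prdm1* (45%, 29.3 to 61.5), against 9.42% of all other cells. The 18 cells with all 3 genes were 4 TGFβR-KO, 11 TGFβR-WT and 3 labelled TGFβR-CA, and 13 of them were Activated. In TGFβR-WT, *Il10* was present in 15.5% of cells with *Prdm1* (8.0 to 26.0) and 0.962% of cells without it. The corresponding shares were 1.12% and 0.306% in TGFβR-KO and 4.62% and 0.484% in cells labelled TGFβR-CA. The Activated cluster is rich in both genes, and its part in this gap was not tested. Within TGFβR-WT Activated cells the shares were 23.3% with and 4.05% without *Prdm1*, and 10 of the 13 cells with *Il10* held *Prdm1* (76.9%, 46.2 to 95) against 31.7% of the others. Within Activated cells of the other conditions the gap was small or absent, with 1.45% against 2.01% in TGFβR-KO and 4.76% against 3.41% in cells labelled TGFβR-CA. Whether these gaps differ between conditions was not tested. Cells with *Il10* held 1954 detected genes in the median against 1509 in the others, and the part of this depth in the joint detection was not tested.

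*Maf* and *Prdm1*, the transcription factors of the set, were detected together more often in Activated cells rich in *Maf*. Over all cells *Prdm1* was found in 9.76% of cells with and 9.09% of cells without *Maf*. In Activated cells the share with *Prdm1* was 7.69% (1 of 13) without *Maf*, 21.7% at 1 to 4 UMIs, 23.0% at 5 to 9, 27.4% at 10 to 19 and 41.5% (32.0 to 51.5) at 20 or more. These bins mix the conditions, and 101 of the 115 cells at 1 to 4 UMIs were TGFβR-KO. Within TGFβR-WT the shares at 1 to 4, 5 to 9, 10 to 19 and 20 or more UMIs were 28.6%, 32.1%, 28.9% and 51.4%, within TGFβR-KO 20.8%, 19%, 23.5% and 38.1%, and in cells labelled TGFβR-CA 28.6%, 29.2%, 32.7% and 35.4%. The share in TGFβR-WT and TGFβR-KO was thus higher at 20 or more UMIs and had no clear order below, and the intervals of neighboring bins overlapped. In the other clusters pooled it was 9.14%, 7.50%, 7.23%, 6.94% and 8.90%, with no order. That flat line joined unlike conditions. Outside Activated cells the share in TGFβR-KO went from 9.73% without *Maf* to 16.7% at 20 or more UMIs, and in TGFβR-WT it was 8.70%, 2.70%, 2.46%, 2.71% and 7.69%.

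**Figure D5:**
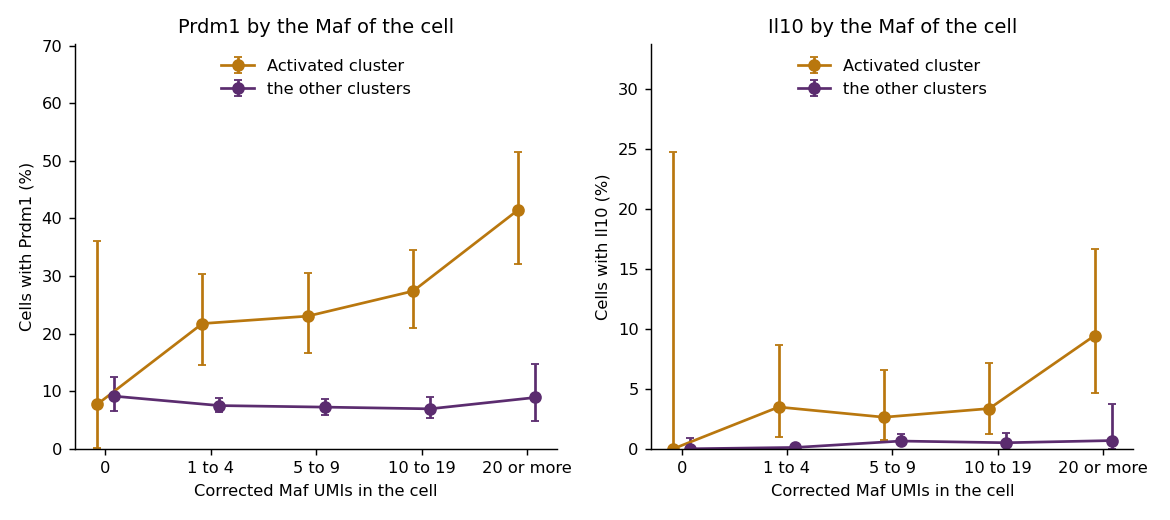
Percentage of cells with *Prdm1* and with *Il10* (y axes) by the number of *Maf* corrected UMIs in the cell (x axis, 0, 1 to 4, 5 to 9, 10 to 19, and 20 or more), for Activated cells and for the other clusters, all conditions together, with exact 95% intervals. At 20 or more *Maf* UMIs the Activated cells reach 41.5% for *Prdm1* and 9.43% for *Il10*, and the other clusters 8.90% and 0.685%.

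The kind of cell that held *Il10* was read from lists of regulators, receptors and cell type markers. The 13 TGFβR-WT Activated cells with *Il10* held 2002 detected genes in the median, against 1718 in the other 104. The part of this depth in the shares below was not tested, and no share over all genes is given beside them. In TGFβR-WT, all 13 Activated cells with *Il10* held *Ahr*, a ligand-activated transcription factor that acts with c-MAF, against 64.4% of the other Activated cells. The same 13 of 13 was found for the inhibitory receptor gene *Ctla4*, against 75%, and for *Nt5e*, which encodes the ectonucleotidase CD73, against 56.7%. *Il2ra*, the high-affinity IL-2 receptor chain, was held by 11 of 13 (84.6%) against 19.2%, *Ikzf3* by 11 of 13 against 49.0%, *Irf4* by 9 of 13 against 24.0% and the inhibitory receptor gene *Lag3* by 12 of 13 against 71.2%. Other listed regulators were less frequent in these cells, with *Id2* in 53.8% against 86.5% and *Ikzf1* in 15.4% against 45.2%. Of the coinhibitory list, *Pdcd1* was less frequent too (1 of 13, 7.69%, against 19.2%), and *Icos* was near equal (92.3% against 91.3%). *Tigit* and *Havcr2* were each in 3 of 13, against 12.5% and 9.62%. *Itga2*, *Entpd1* and the Treg list gene *Tnfrsf18* were in 0 of 13, against 2.88%, 0.962% and 2.88%. The few cells of the other conditions did not share all of this profile. *Ctla4* was held by all 6 TGFβR-KO and all 5 TGFβR-CA Activated cells with *Il10*, but *Ahr* by 3 of 6 and 3 of 5, *Irf4* by 0 of 6 (against 14.7%) and 4 of 5, and *Nt5e* by 3 of 6 and 2 of 5 (against 63.2%). *Foxp3*, the defining factor of regulatory T (Treg) cells, was held by 1 of the 13 TGFβR-WT cells (against 8.65%), 4 of the 6 TGFβR-KO cells (against 3.53%) and 0 of the 5 cells labelled TGFβR-CA. Over all clusters *Foxp3* was found in 5 of 40 cells with *Il10* (4 of 12 in TGFβR-KO, 1 of 20 in TGFβR-WT and 0 of 8 in cells labelled TGFβR-CA) and 0.933% of other cells. *Il17a*, whose earlier expression the sort marks, was detected in 21 of the 40 cells with *Il10* and 9.31% of the others.

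Markers of other cells were given for the same 40 cells. CD8 T cell and γδ T cell markers were at 0 in all 40, but they were found in only 63 and 27 of all 5080 cells. Of the γδ list, *Tcrg-C1* and *Trgv2* were at 0 in every cell, and the authors had taken out γδ T cells. The 0 of 40 therefore says little. Of the macrophage and dendritic cell list, 3 of 7 genes were in the table, and 5 of the 40 cells held at least 1 of them, against 66 cells of 5080. Their summed level was 0.367 per 10000 in the 40 cells, against 0.0323 to 0.0525 across conditions. Epithelial markers (6 of 6 in the table) were found in 8 of 40, against 259 cells in all, with a summed level of 0.550 in the 40 cells against 0.124 to 0.290 across conditions. The B and plasma cell list (7 of 8), which includes *Xbp1*, was found in 20 of 40 against 1539 in all, at 2.32 in the 40 cells against 1.48 to 1.97 across conditions. The mast cell and innate lymphoid cell list (2 of 3) was found in 16 of 40 against 336 in all. Its summed level was 5.56 in the 40 cells, against 0.156 to 1.19 across conditions. All 16 cells held *Kit*, and *Il1rl1* was at 0 in the 40. Within TGFβR-WT Activated cells *Kit* was held by 8 of 13 cells with *Il10* and 37.5% of the others. Defining markers of cells other than CD4+ T cells, which do not include *Kit*, occurred in 4 of the 40. Their part in the *Il10* values was not tested. Marker genes of several cell types in 1 cell can also come from doublets, whose treatment before deposit is not stated in the sources used here.

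Other genes of the pathway were counted against all 7490 genes, whose median log2 ratio to TGFβR-WT was -0.13 in TGFβR-KO and -0.09 in cells labelled TGFβR-CA. Of 25 measured regulators of *Il10* and the members, 5 were called higher and 2 lower in TGFβR-KO, with a median log2 ratio of 0.00, where 2.94% of all genes were called higher and 5.43% lower. *Bhlhe40*, a repressor of *Il10* in helper T cells, was at 3.06 per 10000 against 0.715, and *Tbx21*, which encodes the TH1 factor T-BET, at 0.287 against 0.0538. *Junb*, *Rora* and *Id2* were the other 3 called higher. *Ikzf3* (0.862 against 1.81) and the TFH factor gene *Tcf7* (0.909 against 1.66) were called lower. Of 15 measured cytokine pathway genes, *Il2* and *Socs3* were called higher, and *Il21*, an inducer of *Maf* and *Il10* (0.428 against 1.06), *Il6ra* (0.132 against 0.581) and *Il6st* (0.340 against 0.898) lower, with a median of -0.10. Of 8 measured coinhibitory receptor genes 5 were called lower and 1 higher, with a median of -0.63. *Lag3* was at 0.809 against 4.19, *Nt5e* at 0.513 against 2.23, *Pdcd1* at 0.815 against 1.77, *Icos* at 3.67 against 6.06 and *Tigit* at 0.122 against 0.223, and *Itga2* was higher. Of 2 measured Treg genes *Ikzf2* was called lower. In cells labelled TGFβR-CA, where 1.26% of genes were called higher and 2.75% lower, 0 regulators were called higher and 3 lower (*Rora*, *Id2* and *Fos*), 2 cytokine pathway genes higher (*Il2rg* and *Socs3*) and 1 coinhibitory gene higher (*Tigit*).

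Activated cells, where the 3 members were all lower in TGFβR-KO, gave a partly different list. There 6 regulators were called higher (*Ikzf1*, *Id2*, *Tbx21*, *Bcl6*, *Bach2* and *Tcf7*) and 5 lower (among them *Ahr*, *Nfil3*, *Ikzf3* and *Jun*), where 5.39% of all genes were called higher and 8.95% lower. *Tbx21*, *Bcl6* and *Tcf7* were at 0 in the 29 cells of the smaller TGFβR-WT set, so the rule was met against that set by any value, and all TGFβR-WT Activated cells held 1, 3 and 11 of their UMIs. With UMIs asked for in both sets, 3 regulators and 3.31% of all genes were called higher. *Ahr* was at 0.760 against 4.05 per 10000 and *Nfil3*, a bZIP factor tied to *Il10*, at 0.237 against 1.15. *Lag3* was at 2.84 in TGFβR-KO, 10.9 and 15.3 in the larger and smaller TGFβR-WT sets and 10.7 in cells labelled TGFβR-CA, and *Nt5e* at 0.752 against 3.3. *Icos*, *Tigit* and *Il6st* were lower too, and *Socs3* was higher. *Il6ra* (called lower) and *Itga2* (called higher) had 2 and 3 UMIs in TGFβR-WT Activated cells, so nothing is read from their calls. For cells labelled TGFβR-CA in the same cluster, *Irf1*, *Bach2*, *Il21r* and *Socs3* were called higher and *Il6st* lower.

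Activated cells with and without *Prdm1* were set side by side within each condition, on 69 and 249 cells of TGFβR-KO, 43 and 74 of TGFβR-WT and 42 and 88 labelled TGFβR-CA. Among list genes with at least 200 corrected UMIs, *Lag3* alone, *Prdm1* itself aside, was at least 1.5 times higher in the cells with *Prdm1* in all 3 conditions, at 4.2 against 2.45, 17.9 against 8.60 and 14.5 against 8.81 per 10000. *Havcr2*, an inhibitory receptor gene with 134 corrected UMIs and so below that minimum, was at 0.219 against 0.0526, 0.533 against 0.290 and 1.29 against 0.593. *Egr2*, a factor of activated and anergic T cells, was lower in all 3, at 0.0365 against 0.347, 0.0592 against 0.435 and 0.112 against 0.339. The *Egr2* levels of cells with *Prdm1* rest on very few UMIs in each condition, so nothing is read from this call. Over all 7490 genes, 1.36% were higher and 89 genes were lower by this rule in all 3 conditions. *Maf* levels of the cells with and without *Prdm1* were 24.0 and 20.8, 43.0 and 39.5, and 44.8 and 39.97, so *Maf* differed by condition more than by *Prdm1*. Detected genes were 1766 against 1572, 1808 against 1657 and 1885 against 1637 in the median, and their part in these values was not tested.

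Genes with the most similar pattern were ranked by Pearson's r of the log2 level over the 19 combinations of cluster and condition with at least 20 cells. The combinations share libraries, and the values are a description. For *Maf* the closest were *Lag3* (0.925), *Slc39a13* (0.904), *B4galnt4* (0.903), *Elk3* (0.900) and *Gng5* (0.891). For *Prdm1* they were the chemokine receptor gene *Ccr2* (0.907), *Lamc1* (0.895), *D16Ertd472e* (0.895), *Slamf1* (0.893) and *Metrnl* (0.885). For *Il10*, which was at 0 in 7 of the 19 combinations, they were *Ndufa1* (0.865), the chemokine receptor gene *Ccr1* (0.855), *Kit* (0.855), *Dennd1a* (0.819) and *Hdac4* (0.803). In Activated cells the level of *Kit*, the stem cell factor receptor, was 0.523 in TGFβR-KO, 8.61 and 2.28 in the larger and smaller TGFβR-WT sets and 7.66 in cells labelled TGFβR-CA. *Ccr1* was at 0.0817, 1.40, 2.03 and 1.63. Both were thus low in TGFβR-KO Activated cells, as *Il10* was, but unlike *Il10* they were as high in cells labelled TGFβR-CA as in a TGFβR-WT set. *Kit* was found in 16 of the 40 cells with *Il10* (3 of 12 in TGFβR-KO, 10 of 20 in TGFβR-WT and 3 of 8 labelled TGFβR-CA) and in 6.09% of other cells.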

How the data were processed

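YFP+CD4+ T cells of 4 samples were profiled by droplet scRNA-seq. The authors aligned and counted reads with Cell Ranger 3.1.0 (version per the submitters' processing notes) on mm10, filtered for 1000 to 5000 detected genes a cell and under 10% mitochondrial UMIs, and normalized the cells with SCTransform. They integrated the data with Seurat by reciprocal PCA (3000 features, 10 dimensions, resolution 0.5) and took out epithelial and γδ T cells. What they deposited is a natural log, ln(1 + UMI), of the SCTransform-corrected UMI number, not raw counts. The correction can leave depth differences as differences in zeros.

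The log was undone (values whole within 1e-06), and levels per 10000 corrected UMIs, shares and co-detection were computed for each deposited cluster and condition. No count model, Poisson interval or test was used, because the unit is not raw counts and there is no replicate. A difference was called at a ratio of 1.5 against both TGFβR-WT sets. The members and gene lists were chosen with earlier results of these data known. Further genes named are the called list genes, of which not every one is reported here, and, per member, the 5 most alike by Pearson's r of log2(level + 0.1) among genes with at least 200 corrected UMIs. The genes shown in cells with *Il10*, except the cell type lists, were picked from the lists after their values were seen, and *Il17a* and *Foxp3* were followed over all cells for the same reason. Alternatives covered the TGFβR-WT set used, a threshold of 2 UMIs, cells with 1200 to 2000 detected genes, left-out cells and cluster weights. Scripts were tested on simulated data. Coordinates come from GENCODE for mm10, matched by symbol. Python 3.11.15, numpy 2.4.6, pandas 2.3.3, scipy 1.17.1 and matplotlib 3.10.9 were used.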

Additional observations from a re-analysis of the deposited data

Results flagged for a closer look

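The share of cells with *Prdm1* moved in opposite directions in a pair of clusters of the same contrast. TGFβR-KO minus TGFβR-WT was -15.1 percentage points in Activated cells (21.7% against 36.8%) and 5.60 percentage points in GC-TFH cells (6.60% against 1.01%). In each cluster the exact interval of the TGFβR-KO share lay clear of the shares of both TGFβR-WT sets, but overlapped the interval of the smaller set (15.3 to 50.8 in Activated and 0 to 6.16 in GC-TFH cells). The difference between the clusters was not tested, since TGFβR-KO is 1 sample.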

How the results depend on the processing

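Of 140 values recomputed for the levels, shares and joint detection under the alternatives, 115 stayed within the limit set for them, 25 moved further and 0 reversed a call. For a share or a joint detection the limit was the exact interval. For a ratio it was the standard deviation of its log2 ratios to the larger and smaller TGFβR-WT sets. The ratios to a single set were thus judged by a limit made from those same ratios, so at least 1 of each pair stayed within it by construction. The ratio of *Maf* in TGFβR-KO to TGFβR-WT ranged from 0.525 to 0.619, and that of TGFβR-CA from 1.05 to 1.24. For *Prdm1* the TGFβR-KO ratio of 1.44 was 2.10 against the smaller set and 0.948 at the TGFβR-WT cluster shares, where the TGFβR-KO share of cells was 7.69%. The TGFβR-CA ratio of 0.799 was 1.17 against the smaller set, and the Activated TGFβR-KO ratio of 0.523 was 0.656. For *Il10* the TGFβR-KO ratio of 0.150 was 0.115 in cells with 1200 to 2000 detected genes, 0.119 at the TGFβR-WT cluster shares and 0.115 without cells holding *Foxp3*, an alternative chosen after seeing the data. The TGFβR-CA ratio of 0.580 was 0.749 in cells with 1200 to 2000 genes. The exponential of the mean difference of the deposited logs gave 0.983 for TGFβR-KO and 0.989 for TGFβR-CA, since nearly all cells are at 0. At 2 or more UMIs the shares of TGFβR-KO, TGFβR-WT and TGFβR-CA cells with *Maf* were 76.5%, 88.4% and 93.9%, with *Prdm1* 2.39%, 2.48% and 2.0%, and with *Il10* 0.168% and 1.09% in TGFβR-KO and TGFβR-WT, fewer cells by construction. In TGFβR-WT, the share with *Il10* was 2.08 points higher in cells with than without *Maf*, and 0.854 within clusters, where the Activated cluster gave no value because all its cells held *Maf*. For *Prdm1* and *Il10* the 14.5 points became 2.38 within clusters and 26.7 at 2 or more UMIs. The within-cluster value averages clusters by their cell number, so Activated cells, 11.6% of TGFβR-WT cells, weigh little in it. Inside Activated cells of TGFβR-WT the gap, given above, was wider than the 14.5 points. For *Maf* and *Prdm1* the -1.72 points became -4.83 within clusters, -3.52 in the smaller set and 1.21 at 2 or more UMIs. The within-cluster value again lacks Activated cells, which held most of the TGFβR-WT cells with *Prdm1*, and it lacks Tumorigenic and CTL cells. Only 46 TGFβR-WT cells were without *Maf*, of which 4 held *Prdm1*, so no direction is read from these values. The cause of the moves was not tested where none is named. Of the 5 genes most like each member, 2 (*Maf*), 1 (*Prdm1*) and 1 (*Il10*) were shared with a ranking by Spearman's rho, so those names depend on the measure. No paired analysis was possible because there is 1 TGFβR-KO and 1 TGFβR-CA sample and the result comes from no test. Depth limits *Il10* most, with 88 corrected UMIs.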
